A study of Gallus gallus with 26 samples.

Results

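The last day of a time course of the complexus muscle of broiler chickens (Gallus gallus) is compared here with the day before it. The 4 libraries of embryonic day 21 (E21, replicates 1, 3, 5 and 6) were set against the 5 libraries of embryonic day 20 (E20, replicates 1 to 5), 9 of the 26 libraries of the series, as the sample titles give them. The other 17 libraries, of E15, E17 and E19, entered the same fit and served as background. Day was the only factor: the labels give no other treatment, no strain or sex, and a single batch. The labels call both days embryonic, while the series' design text places the last samples around hatch and placement of the chicks, and a header of the authors' deposited table names a comparison of after with before hatching without listing its days. Where hatching falls between the sampled days was therefore not taken from the labels. Whether each library came from a separate bird is not stated, so p-values measure the spread between these libraries.

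The complexus lies on the back of the neck and drives the head movements with which the chick breaks the shell. It is known to enlarge towards hatching and to regress afterwards. Hatching also moves the chick from gas exchange across the shell membranes and nutrients of the yolk to breathing with the lungs and to feed. RNA from bulk muscle was counted per gene by MARS-Seq, a method that tags transcripts near their 3′ ends. In bulk RNA, fewer cells of a type and less RNA per cell cannot be told apart. The deposited table lists 8758 genes as Ensembl identifiers and gives them no names. The 25635 RefSeq genes available for naming carried no Ensembl identifiers, so no match was possible. Markers of muscle and of other cell types were therefore not analysed here, and the genes are described by level, by course and, for 4 of them, by identifier.

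The E21 libraries held 661931 to 2046622 counts and the E20 libraries 632074 to 1373614. Levels are given throughout in CPM, counts scaled to library size and to TMM factors, which centre the bulk of the genes. A count of 0 in 1 library allowed a level of up to 1.1 to 3.48 CPM at E21 and 2.17 to 4.89 CPM at E20. These limits take 3 counts as the bound and cover counting error only. The E21 libraries resembled each other slightly more than the E20 libraries did, by measures that depend on depth, which was not matched. Across genes, which are not independent replicates, correlations of log2 CPM lay between 0.95 and 0.97 for the 6 pairs within E21, between 0.924 and 0.954 for the 10 pairs within E20, and between 0.901 and 0.941 for the 20 pairs across the days. Over the 1907 genes with a mean of at least 50 CPM, the median SD between libraries was 0.202 at E21 and 0.243 at E20 on the log2 scale.

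Relative to the bulk of the genes more genes were lower than higher at E21, and the falls were larger, although the balance turned round when libraries were scaled by their totals. Of 5901 genes tested, 846 (14.3%) passed edgeR's quasi-likelihood test (Benjamini-Hochberg adjusted p under 0.05): 339 (5.74%) were higher at E21 and 507 (8.59%) were lower. The higher genes had a median log2 fold change of 0.71 and the lower genes one of -1.06. At least 2-fold changes were seen in 80 higher genes (1.36%) and 270 lower genes (4.58%). A change of at least 4-fold was reached by 57 lower genes and by 9 higher genes. Conversely, 113 (33.3%) of the higher genes but 67 (13.2%) of the lower genes differed less than 1.5-fold. Over all genes the median log2 fold change was 0 with TMM scaling factors and 0.37 with library totals. On library totals 1702 genes were higher and 245 lower. E21 replicate 1 was the deepest of the E20 and E21 libraries, and without it 218 genes were higher and 359 lower.

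**Figure D1:**
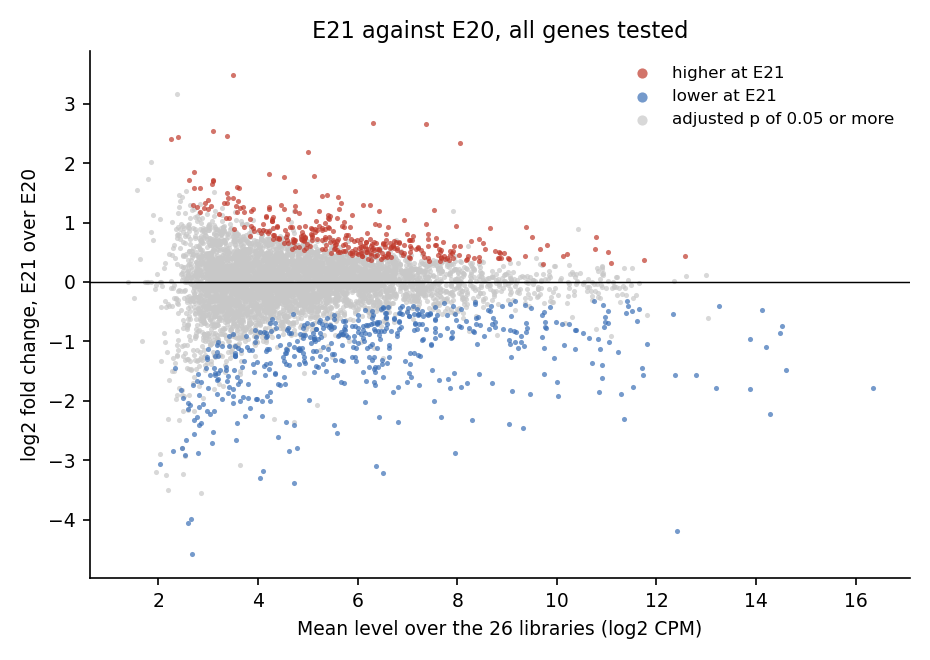
Each point is 1 of the 5901 genes tested, with its mean level over the 26 libraries (log2 CPM) on the horizontal axis and its log2 fold change of E21 over E20 on the vertical axis. Red points are the 339 genes higher at E21 and blue points the 507 genes lower at E21 (edgeR, adjusted p under 0.05). The blue points reach below -4, the red points stop at 3.49, and the most abundant genes at the right lie below 0.

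The calls were mostly clean separations of the libraries. In 244 (72%) of the higher genes every E21 library lay above every E20 library, and in 334 (65.9%) of the lower genes every E21 library lay below. Over all genes tested, the libraries of the 2 days did not overlap in 356 genes with E21 above (6.03%) and in 418 with E21 below (7.08%). Against the whole series, every E21 library stood above all 22 other libraries in 140 (41.3%) of the higher genes, and in 178 (3.02%) of all genes tested. Every E21 library stood below all 22 others in 157 (31%) of the lower genes, and in 167 (2.83%) of all genes tested. Calls and separations rest on the same values, so the larger shares among called genes follow largely from the calls.

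The most abundant transcripts of the embryonic muscle gave up much of their share at E21. The 50 genes with the highest levels at E15, E17 and E19, chosen without any E20 or E21 library, took 28.4%, 28.9%, 29.5% and 27.8% of the counts in E21 replicates 1, 3, 5 and 6. In E20 replicates 1 to 5 they took 42.3%, 43.9%, 41.8%, 42.1% and 40.7%. The days did not overlap. The mean share was 28.6% ± 0.727 at E21 (SD, n = 4) and 42.2% ± 1.16 at E20 (SD, n = 5), a difference of -13.5 points (exact two-sided permutation p = 0.00794, the smallest that 4 against 5 libraries allow; also 0.00794 after Benjamini-Hochberg adjustment over 2 such tests). The first 20 of the 50 genes alone differed by -13.9 points, so the rest of the 50 added no loss as a set. The counts spread over more genes in return. It took 141 ± 8.54 genes to hold 50% of the counts at E21 (SD, n = 4) and 72.4 ± 4.39 at E20 (SD, n = 5), again without overlap (exact permutation p = 0.00794). The decline had begun before E20. The 50 genes took 42.3% ± 1.12 of the counts at E15, 48.1% ± 1.52 at E17 and 51.8% ± 1.27 at E19 (SD, n = 6, 6 and 5), so that E20 already lay below E19. The genes holding 50% of the counts numbered 79.2 ± 4.4, 57.7 ± 6.77 and 40 ± 3.39 on those days. The 50 genes were chosen on those days, which favours their shares there over E20. The number of genes holding 50% of the counts involves no such choice of genes, but this measure was itself added after seeing the data.

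**Figure D2:**
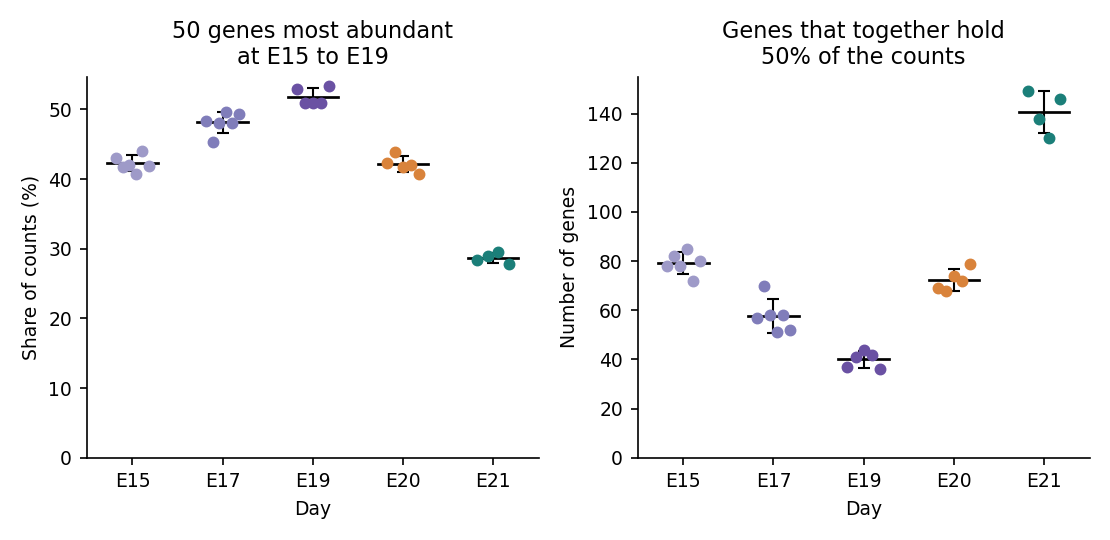
Each point is 1 library, grouped by day, and lines with bars are means ± SD. The left panel gives the share of counts (%) in the 50 genes most abundant at E15 to E19, and the right panel the number of genes that together hold 50% of the counts. E21 has the lowest share of any day, 28.6% on average, and the highest number of genes, 141.

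All 10 of the most abundant genes, ranked by their level from E15 to E19, fell, and in each of them the E21 libraries lay below all E20 libraries. Their median log2 fold change was -1.30, against 0 over all genes tested, and 6 of them fell at least 2-fold. The first of them averaged 27100 ± 2090 CPM at E21 (SD, n = 4) and 93700 ± 6410 CPM at E20 (SD, n = 5), CPM being scaled with the TMM factors as throughout. On the log2 scale it changed by -1.79 (SE 0.11, edgeR adjusted p = 1.09e-13). This gene alone took 3.1% to 3.78% of the counts in E21 libraries and 8.71% to 9.8% in E20 libraries. It had peaked at E19 with 149000 ± 12200 CPM (SD, n = 5), and its E21 level was also under the 71400 ± 9050 CPM of E15 (SD, n = 6). The second averaged 3780 ± 805 CPM at E21 and 17700 ± 3850 CPM at E20 (SD, n = 4 and 5), which is -2.23 as a log2 fold change (SE 0.19, edgeR adjusted p = 5.63e-10). The smallest fall among the 10 was that of the eighth, with 15600 ± 1780 CPM at E21 and 21800 ± 3000 CPM at E20 (SD, n = 4 and 5) or -0.48 as a log2 fold change (SE 0.12, edgeR adjusted p = 0.0087). On library totals 9 of the 10 fell and none rose, against 4.15% lower and 28.8% higher over all genes tested.

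The share of falling genes was smaller in the lower ranks, on both scales. With TMM factors, of the genes ranked 11 to 50, 21 of 40 (52.5%) fell and 2 rose, with a median log2 fold change of -0.43. Of those ranked 51 to 200, 42 of 150 (28%) fell and 8 rose. Among ranks 201 to 1000, 147 of 800 genes (18.4%) fell and 72 (9%) rose. Beyond rank 1000, 287 of 4901 genes (5.86%) fell and 257 (5.24%) rose, against 8.59% and 5.74% of all genes. These genes are most of those tested and TMM factors centre the bulk of the genes, so the balance of their directions follows largely from the scaling. On library totals 13 genes fell and 10 rose in ranks 11 to 50, with a median log2 fold change of -0.06. On that scale rises outnumbered falls in the later ranks, by 67 to 27 in ranks 51 to 200, 340 to 61 in ranks 201 to 1000 and 1285 to 135 beyond. Over all genes tested it was 1702 to 245. Low genes are called less often at this depth: of the 1180 genes with the lowest mean levels, between 2.33 and 10.2 CPM, 18 were higher and 55 lower, and all but 2 of these differed at least 2-fold.

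The genes that led the transcriptome also changed, in part before E20. Of the 50 leading genes of E20, 36 were among the 50 leading genes of E21. Of the 50 leading genes of E15 to E19, 30 were among the 50 leading genes of E21 and 35 among those of E20. With TMM factors, a mean of at least 1000 CPM was held by 134 genes at E21 and by 153 at E20. The factors were 1.22 to 1.33 at E21 and 0.97 to 1.02 at E20, so the same share of counts gave a lower CPM at E21. Numbers at this level were not computed on library totals. The lower genes included 57 of the 153 at E20, while the higher genes included 16 of the 134 at E21. Over all genes tested 8.59% were lower and 5.74% higher. Each of these sets was picked by the level on its own higher day, which favours such calls. The genes called lower together took 26.6% ± 0.34 of the counts at E21 (SD, n = 4) and 45.9% ± 1.86 at E20 (SD, n = 5). The genes called higher took 13.4% ± 0.592 at E21 and 6.76% ± 0.627 at E20 (SD, n = 4 and 5). These last shares follow from the calls themselves and describe only how much RNA the called genes represent.

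Genes that had been rising up to E19 fell more often than others at E21. In a separate edgeR fit of the 17 libraries of E15, E17 and E19, 1095 of 5269 genes (20.8%) were higher at E19 than at E15 and 1049 (19.9%) were lower. No E20 or E21 library entered this grouping. With TMM factors, 8.59% of all genes tested fell from E20 to E21 and 5.74% rose, with a median log2 fold change of 0. Of the genes higher at E19, 231 (21.1%) fell and 73 (6.67%) rose, with a median of -0.16. Among the 413 of these that had gained at least 2-fold by E19, 30.8% fell and 3.39% rose, with a median of -0.39. Genes lower at E19 than at E15 fell in 104 cases (9.91%) and rose in 57 (5.43%), close to the shares of all genes, with a median of -0.05. The 3125 genes with no call from E15 to E19 had more rises than falls with TMM factors, 189 (6.05%) against 139 (4.45%), with a median of 0.05. On library totals rises outnumbered falls in all of them, by 332 to 113 in genes higher at E19, 267 to 55 in genes lower at E19 and 1015 to 59 in genes with no call. Over all genes tested it was 1702 to 245. Falls were also more frequent at high levels: with TMM factors, 19.6% of the 1181 genes with the highest mean levels fell. Of the 1180 genes with the lowest mean levels, 4.66% fell. The groups by course were not matched by level, and the differences between them were not tested.

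The mean level of the genes higher at E19 lay, relative to its E20 mean, at -0.226, -0.241, -0.155 and -0.247 in E21 replicates 1, 3, 5 and 6 on the log2 scale. In E20 replicates 1 to 5 it lay at 0.041, -0.021, 0, 0.031 and -0.05. All E21 libraries were thus below all E20 libraries for this group. With library totals as the scale its median log2 fold change was 0.21, still under the 0.37 of all genes on that scale, and 10.3% of its genes fell, against 4.15% over all genes.

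**Figure D3:**
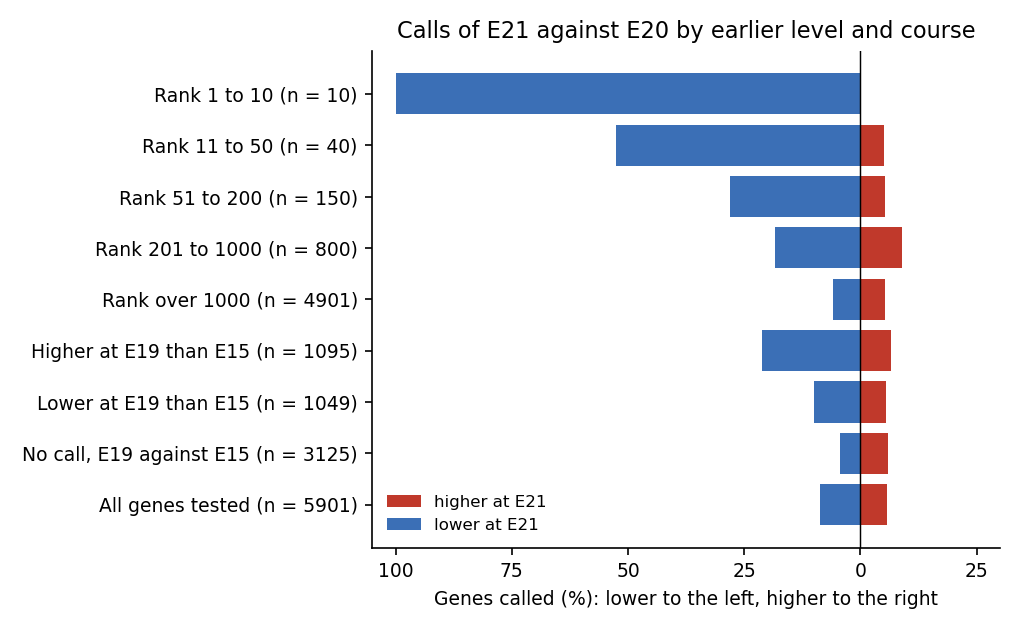
Bars give the percentage of genes called lower at E21 than at E20 (blue, to the left) and higher (red, to the right), for genes ranked by their level at E15 to E19, for genes grouped by their change from E15 to E19, and for all genes tested, with TMM factors. The number of genes tested stands beside each group. The share of falling genes is 100% in ranks 1 to 10 and 5.86% beyond rank 1000.

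The genes with the largest changes had different courses before E20. The largest rise under the rule for named genes was that of ENSGALG00000038748.1, and it was a return from a low at E20. Its level was 105, 139, 106 and 107 CPM in E21 replicates 1, 3, 5 and 6, against 17.1, 9.86, 22.6, 14.3 and 22.3 CPM in E20 replicates 1 to 5. Every E21 library was above every E20 library, the log2 fold change being 2.68 (SE 0.24, edgeR adjusted p = 7.13e-10). On the earlier days its means had been 120 ± 29 CPM (E15), 106 ± 27.9 CPM (E17) and 111 ± 19.5 CPM (E19; SD, n = 6, 6 and 5), close to its E21 mean of 114 ± 16.7 (SD, n = 4).

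The second, ENSGALG00000027323.3, reached its highest level of the series at E21. It had 899, 1310, 2110 and 1840 CPM in E21 replicates 1, 3, 5 and 6 and 352, 131, 470, 116 and 129 CPM in E20 replicates 1 to 5. The days did not overlap, although the E20 libraries themselves varied widely, and on the log2 scale the change was 2.67 (SE 0.38, edgeR adjusted p = 5.29e-06). Its earlier means were 193 ± 79.8 CPM (E15), 60.3 ± 19.8 CPM (E17) and 80.6 ± 47 CPM (E19; SD, n = 6, 6 and 5).

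The largest fall was that of ENSGALG00000024272.3, a gene of low level that had been high at E19 and E20. It had 0.371, 1.17, 2.42 and 0 CPM in E21 replicates 1, 3, 5 and 6, resting on 5 counts in all, against 44.2, 27.9, 19, 4.46 and 20.8 CPM from 93 counts in E20 replicates 1 to 5. All E21 libraries were lower, but the lowest E20 library was near them, and the log2 fold change of -4.57 had an SE of 1 (edgeR adjusted p = 0.00181). At E19 it ranged from 4.69 to 170 CPM, and at E15 it had stood at 0.778 ± 0.898 CPM (SD, n = 6).

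The second fall, of ENSGALG00000028612.2, concerned an abundant gene, ranked 13 from E15 to E19. Its level was 865, 520, 505 and 368 CPM in E21 replicates 1, 3, 5 and 6. In E20 replicates 1 to 5 it was 14100, 16600, 12300, 4320 and 4440 CPM. The E20 libraries fell into 3 high and 2 lower values, and all of them were above all E21 libraries. On the log2 scale the change was -4.19 (SE 0.47, edgeR adjusted p = 1.08e-07). Before E20 no library of this gene had been below 5030 CPM, the lowest of E17, and the lowest of E15 and E19 were 6020 and 5840 CPM. These 4 genes are the first 2 in each direction among the 244 higher and 323 lower genes that passed the test, whose libraries did not overlap between the days and whose higher day averaged 10 CPM or more. The authors' deposited table gives log2 fold changes of 2.69, 2.68, -4.66 and -4.21 for them.

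**Figure D4:**
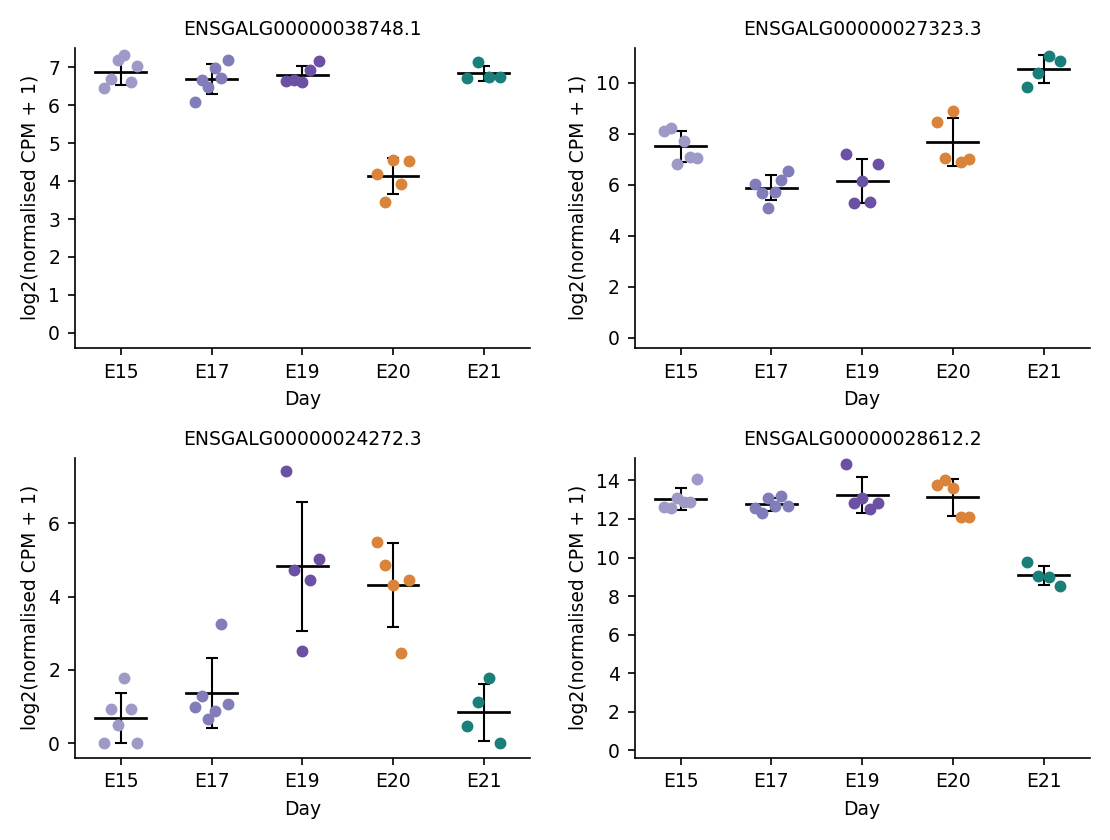
Each panel shows 1 gene, each point 1 library, and lines with bars are means ± SD per day of log2(normalised CPM + 1). ENSGALG00000038748.1 is low at E20 alone and ENSGALG00000027323.3 is highest at E21. ENSGALG00000024272.3 is back near its E15 level at E21, and ENSGALG00000028612.2 is high on all days up to E20 and between 368 and 865 CPM at E21.

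Most changed genes had an extreme of the whole period at E21. Of the 339 higher genes, 289 (85.3%) had their highest mean of the 5 days at E21. Of the 507 lower genes, 379 (74.8%) had their lowest mean at E21. The calls raise both shares, since a higher gene can hardly be highest at E20, nor a lower gene lowest there. The same shares over all genes tested were not computed. The lower genes came from several earlier peaks, with 188 (37.1%) highest at E19, 144 (28.4%) at E15, 24.5% at E20 and 51 (10.1%) at E17. In the 195 that were highest at E15 or E17, the median level relative to the 5-day mean was -1.14 at E21 and -0.12 at E20 on the log2 scale, after 0.74 at E15. In the 188 that were highest at E19 it was -0.79 at E21 and 0.12 at E20. In those that were highest at E20 it was -0.16 at E21 and 0.85 at E20, and -0.55 at E15.

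A smaller set rose out of a low at E20. For 89 higher genes (26.3%) E20 was the day of the lowest mean, beside 29.5% for E15, 18.3% for E17 and 26% for E19. The call of higher at E21 itself favours a low at E20, and the same share over all genes tested was not computed. In the 89 genes the median level was 0.25 at E21 and -0.49 at E20, beside 0.21 at E15, 0.10 at E17 and -0.06 at E19. In 11 of the 339 higher genes (3.24%) every E20 library lay below all 21 other libraries, as in ENSGALG00000038748.1, against 0.237% of all genes tested. In 17 of the 507 lower genes (3.35%) every E20 library lay above all 21 others, against 0.305% of all genes tested. Such genes lie apart at E20 and E21 by definition, so their larger share among called genes follows largely from the calls. Another 240 higher genes had their lowest mean before E20 and their highest at E21. In those 240 the level was already above the 5-day mean at E20, at 0.84 at E21 and 0.12 at E20 against -0.32 at E19. The grouping by extreme days uses these same libraries and fixes part of each course, so it is a description.

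**Figure D5:**
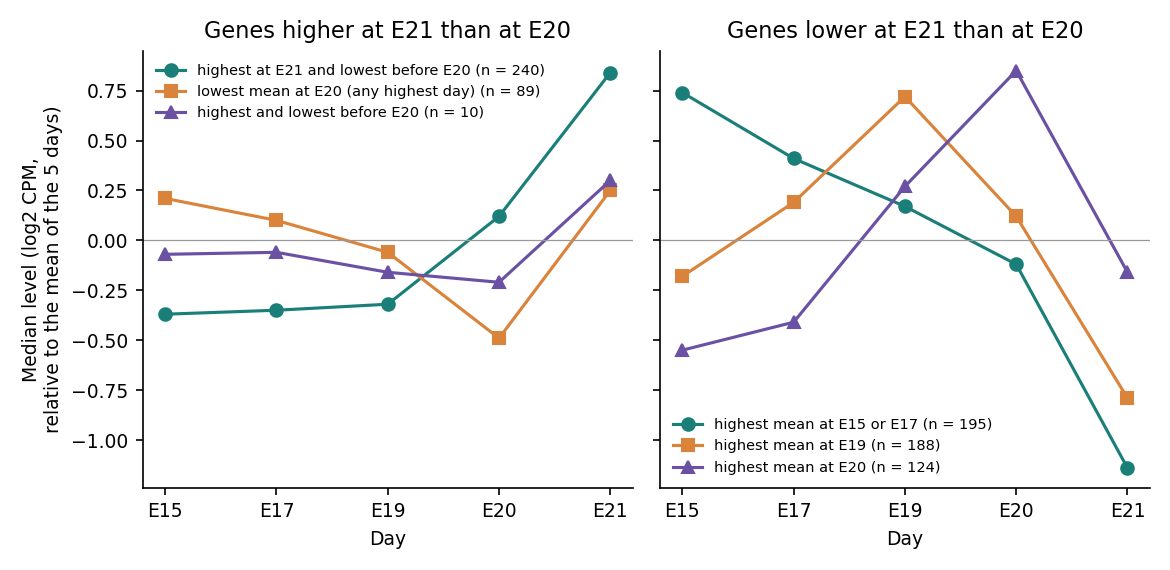
Lines give the median level of groups of called genes on each day, in log2 CPM relative to the mean of the 5 days, for genes higher (left) and lower (right) at E21 than at E20, split by the day of their highest or lowest mean. The 89 genes lowest at E20 return at E21 to about their E15 level, and the 195 genes highest at E15 or E17 reach -1.14 at E21.

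The clusters that the authors attribute to maSigPro, a tool for time courses, moved in opposite directions at this step. They were made from these libraries, so their directions are not independent evidence. Cluster 2 held nearly all rising genes of the 5 clusters, with 54 of 109 genes (49.5%) higher and 1 lower, against 5.74% and 8.59% over all genes tested. Its mean level relative to the 5-day mean was 1.70 ± 0.08 at E21 (SD, n = 4) and 1.00 ± 0.20 at E20 (SD, n = 5) in log2 CPM. Cluster 4 fell furthest, with 41 of 47 genes (87.2%) lower and none higher, and levels of -1.74 ± 0.13 at E21 and -0.43 ± 0.15 at E20 (SD, n = 4 and 5). In cluster 5, 21 of 24 genes (87.5%) fell, none rose, and the level was -1.22 ± 0.06 at E21 and -0.04 ± 0.14 at E20 (SD, n = 4 and 5).

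Clusters 1 and 3 fell in part. In cluster 3, 26 of 48 genes (54.2%) were lower and 2 higher, with a level of 0.58 ± 0.08 at E21 and 1.19 ± 0.08 at E20 (SD, n = 4 and 5), still above its -1.73 ± 0.07 at E15 (SD, n = 6). In cluster 1, which had fallen since E15, 37 of 115 genes (32.2%) were lower and 3 higher, and the level was -1.48 ± 0.09 at E21 and -0.93 ± 0.15 at E20 (SD, n = 4 and 5). On library totals 28.8% of all genes tested were higher and 4.15% lower. On that scale 89 genes of cluster 2 (81.7%) rose. In cluster 4, 34 genes (72.3%) fell, and in cluster 5, 16 genes (66.7%) fell, and none of either rose. In clusters 3 and 1 on that scale, 16 and 26 genes fell and 7 and 4 rose.

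The authors' own calls for this comparison were fewer, and nearly all of those tested here were also called here. The authors' deposited table calls 73 genes higher and 173 lower at E21, at an adjusted p of at most 0.05, an absolute log2 fold change of at least 1 and a maximum count of at least 30. Of the 244 of these genes tested here, 242 were also called here. Of the 604 genes called here but not in the authors' deposited table, 495 had an absolute log2 fold change under 1 in it. An adjusted p over 0.05 was given there for 105 of the 604. All 846 genes called here have the same sign in the authors' deposited table. Both sets of values come from the same libraries, so the shared signs are not independent evidence.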

How the data were processed

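RNA of bulk complexus muscle was counted per gene in 26 libraries. The authors deposited whole-number counts per gene, which the file headers call raw. STAR 2.7.10a and HTSeq 2.0.2 are listed, as is DESeq2, in the submitters' processing notes, with no settings. The build, annotation, strandedness and use of molecular identifiers are not given in the sources used, so reads shared by near-identical or overlapping genes cannot be told apart. The authors also deposited log2 fold changes, adjusted p-values and calls, used only for comparison, and 26 columns of normalised values, which were not used.

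The counts went into edgeR 4.0.16 (R 4.3.3; glmQLFit and glmQLFTest) with TMM factors (1.22 to 1.33 at E21, 0.97 to 1.02 at E20). filterByExpr by day (minimum count 10, minimum total 15) kept 5901 genes with 99.23% of the counts. One fit of all 26 libraries had day as its only term, and the Benjamini-Hochberg adjustment ran over all 5901 genes. The SE of a log2 fold change is its size divided by the square root of the F statistic. Log2 CPM used a prior count of 2. Exact permutation tests used all 126 divisions of 9 libraries. No 2 replicates were alike within sampling noise: chi-square per degree of freedom lay between 4.69 and 7.68 over 16 pairs. The scripts were tested on simulated counts. Alternatives were other scalings, no filter, DESeq2 1.42.0, the 9 libraries alone, a replicate block and each library left out.

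Named genes were the first 2 in each direction by log2 fold change among genes with an adjusted p under 0.05, no overlap of libraries and a mean of 10 CPM or more on the higher day. Fixed lists of pathway and cell type genes need names and were not used. The comparison, lists and rules were chosen with earlier results of these data known, and the number of genes holding 50% of the counts, the rank classes and the grouping by extreme days were added after seeing the data.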

Additional observations from a re-analysis of the deposited data

Results flagged for a closer look

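In 5 of the 30 groups of library values examined, 1 library stood apart from the rest of its group by Dixon's criterion. With normally distributed values, chance meets it in about 1 group in 20. The levels of the named genes were examined as CPM without logarithms, so that rate need not hold for them. ENSGALG00000038748.1 had 139 CPM in E21 replicate 3, and the next highest E21 library had 107. The other 4 lie on earlier days. ENSGALG00000024272.3 had 170 CPM in 1 E19 library, and the next had 31.3. The same gene had 8.59 CPM in 1 E17 library, and the next had 1.45. ENSGALG00000028612.2 had 29900 CPM in 1 E19 library, and the next had 8850. It also had 17400 CPM in 1 E15 library, and the next had 8820. Without E21 replicate 3, the log2 fold change of ENSGALG00000038748.1 was 2.57 (adjusted p = 6.55e-09 in edgeR).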

How the results depend on the processing

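Library totals in place of TMM factors changed the counts of genes most: 1702 higher, 245 lower, 417 at least 2-fold higher and 149 at least 2-fold lower. On that scale 840 of the 846 called genes kept their sign, and 583 were still called. Median log2 fold changes became 0.21 for genes higher at E19 than at E15, 0.31 for genes lower at E19 and 0.42 for those with no call, each moved with the shift of 0.37 over all genes. Restricted to 2-fold changes between E19 and E15, the medians were -0.39 and -0.21. RLE factors, upper-quartile factors, no filter, DESeq2 (332 higher, 532 lower), the 9 libraries alone (248 higher, 416 lower) and TMM factors without the 50 most abundant genes, chosen after seeing the data, stayed within 1.5 times of the main counts. The lists of called genes changed more. In the 9 libraries alone, 780 of the 846 called genes were tested and 619 were called again. The other settings in this group called 739 to 837 of them again.

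Leaving out each library gave 218 to 304 higher genes, the lowest without E21 replicate 1. For lower genes and 2-fold changes all such counts stayed within 1.5 times of the main ones. Of the 846 called genes, 560 (without E21 replicate 1) to 742 (without E20 replicate 5) were called again. All 72 alternative values of the 4 named genes kept their direction and an adjusted p under 0.05. These genes were chosen for large changes in the same libraries, so this tests them little. The share of the abundant genes differed by -13.9 points with 20 genes, -13.5 with 50, -12.8 with 100 and -11.5 with 200. Genes beyond the first 20 thus added no loss as a set. Without the top gene the share of the 50 differed by -10.2 points. Replicate numbers are shared, but deviations of same-numbered libraries correlated at 0.032, -0.046 and -0.028. No pairing was thus seen, although 3 pairs cannot exclude one. A replicate block gave 241 higher and 411 lower genes, and 624 of the 846 called genes were called again. The share over 3 such pairs differed by -12.7 points (exact p = 0.25, the smallest that 3 pairs allow).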

Other observations

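A block of 4 genes was at or near 0 in some libraries of each of E15, E17 and E19 and present in the others. Chosen on those libraries, it was present in 4 of 4 E21 libraries, with a summed level of at least 41.1 CPM, and in 4 of 5 E20 libraries, with at least 44.4 CPM, and had no count in E20 replicate 2. With its presence as a second term, an alternative chosen after seeing the data, 340 genes were higher and 511 lower at E21.

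Few listed genes were seen on 1 day alone. Counts at E21 and none at E20 were found for 66 of 8758 listed genes, with at most 26 counts over the E21 libraries. Counts at E20 and none at E21 were found for 84, with at most 37 counts over the E20 libraries. Thinned to 632074 counts each, E21 libraries held 7708 to 7839 genes with a count and E20 libraries 7575 to 7742, so the days overlapped. Before thinning they held 7810 to 8430 and 7618 to 8238.

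Of the 1907 genes with a mean of at least 50 CPM, 7 varied between E21 libraries and 10 between E20 libraries with an SD over 1 on the log2 scale, and 1 gene did so on both days.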
